A study of Mus musculus with 30 samples.

Results

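Neuroendocrine cells store peptide hormones in dense-core granules and release them by regulated exocytosis. The genes described here are 36 that build this system: 8 granins and other granule cargo proteins, 3 prohormone-processing enzymes, 2 genes of the calcitonin and CGRP peptides, 10 vesicle and exocytosis genes, 10 transcription and RNA regulators, and 3 other neuroendocrine genes of the cytoplasm and membrane. They were taken by gene symbol from a list drawn up with earlier results of these data known, with no threshold on a measured value, out of 55011 genes in one set of count files and 35999 gene symbols in another. All 36 had counts in both sets.

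The study measured RNA in medullary thymic epithelial cells (mTECs), the thymic cells that display proteins of other tissues to developing T cells. Aire, a transcriptional regulator of these cells, raises the expression of many such tissue-restricted genes, and hormone and granule genes are among the tissue-restricted genes known from mTECs. Mature mTECs also include rare cells with programs resembling endocrine, neuroendocrine, tuft or ciliated cells. In bulk libraries fewer cells of a type and less RNA per cell cannot be told apart.

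All mice in the libraries used here were female C57BL/6J, 4 to 6 weeks old, and each library came from 1000 sorted thymic cells after removal of CD45+ cells, prepared by Smart-seq2. The first experiment holds Aire-GFP+ mTECs, 3 libraries labelled WT and 2 labelled Aire-KO, with no treatment. The second holds mTEChi, the mature mTEC fraction, in 8 groups of 2 libraries. These are WT mice given an intraperitoneal (ip) injection of PBS, WT given Spermidine, Aire-KO given PBS, Aire-KO given Spermidine, WT given DMSO, WT given Topotecan, and untreated mice of the genotypes Foxn1-cre,Nfe2l2+/+ and Foxn1-cre,Nfe2l2 fl/fl. Both Nfe2l2 groups carry Foxn1-cre, a Cre driven by a gene of thymic epithelium. The labels give no dose or injection schedule, no design of the Aire-KO allele, and do not say whether animals were pooled.

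Library totals were 6615290 to 12682100 estimated counts in the 5 Aire-GFP+ libraries and 2027200 to 5724040 counts in the 16 mTEChi libraries. Levels are given as CPM, counts scaled to a common library total with TMM factors, and a gene was called higher or lower at a Benjamini-Hochberg adjusted p under 0.05 in edgeR's quasi-likelihood test over all genes tested. Of 16 mTEC identity genes, all had counts in both Aire-GFP+ groups, while Ccl21a had none in 7 of the 8 mTEChi groups. Aire itself had counts in every library: 1603, 1686 and 1671 CPM in Aire-GFP+ WT, 1508 and 1774 in Aire-GFP+ KO, 1621 to 1814 in PBS and spermidine WT mTEChi and 4096 to 5075 in KO mTEChi. Counts over the whole gene do not show which exons were read, so they do not check the knockout labels. The same holds for Nfe2l2, at 90.7 and 91.4 CPM in the Nfe2l2+/+ libraries and 105.5 and 86.6 in the fl/fl libraries. Chga and Insm1, the genes that mark the neuroendocrine program, were read in all 21 libraries, Chga at 20.4 to 411.7 CPM and Insm1 at 3.82 to 88.2.

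The promoters of 3 granule cargo genes are shown first because all 3 genes had less RNA in Aire-KO Aire-GFP+ cells, and because the study's title concerns Z-DNA, the left-handed helix that alternating purine and pyrimidine bases can form. Sequences come from the RefSeq promoter table for GRCm38.p6, whose windows run from 250 bases before a transcript's start to 50 after it, and which matched 26 of the 36 genes. They are written 5′ to 3′ on the gene's strand, in lower case. Capitals mark the longest alternating purine-pyrimidine run in Chga, and in Chgb and Scg2 the palindromic cAMP response element TGACGTCA, the sequence that CREB-family factors bind. The Chga stretch is chr12:102554691-102554968 on the plus strand, the Chgb stretch chr2:132781392-132781641 on the plus strand and the Scg2 stretch chr1:79440027-79440276 on the minus strand.
Chga: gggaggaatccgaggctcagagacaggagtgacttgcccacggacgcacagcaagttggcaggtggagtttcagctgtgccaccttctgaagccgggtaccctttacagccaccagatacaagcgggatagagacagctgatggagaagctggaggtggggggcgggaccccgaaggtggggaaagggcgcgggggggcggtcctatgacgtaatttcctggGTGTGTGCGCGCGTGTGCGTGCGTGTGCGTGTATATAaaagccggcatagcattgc
Chgb: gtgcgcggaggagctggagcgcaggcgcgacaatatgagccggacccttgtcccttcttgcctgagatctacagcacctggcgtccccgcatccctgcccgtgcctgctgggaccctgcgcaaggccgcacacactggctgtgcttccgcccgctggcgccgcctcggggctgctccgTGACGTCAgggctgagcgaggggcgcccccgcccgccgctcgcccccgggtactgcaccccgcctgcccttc
Scg2: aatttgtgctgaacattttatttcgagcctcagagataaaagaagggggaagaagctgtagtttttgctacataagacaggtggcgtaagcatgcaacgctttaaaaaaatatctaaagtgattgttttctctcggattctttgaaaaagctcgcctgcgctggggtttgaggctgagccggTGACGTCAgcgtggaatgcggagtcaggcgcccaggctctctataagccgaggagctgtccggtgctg

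The run in Chga is 37 bases long. It begins 28 bases before the RefSeq start and ends at base 9 of the RefSeq transcript, upstream of the start that GENCODE M21 gives the gene. Of 32851 windows in the table, 47 (0.143%) held a run of 37 or more, and Chga was the 1 gene of the list among them. Runs of 12 or more bases were in 9.32% of windows and in those of 2 listed genes, Chga and Nnat. The element TGACGTCA was in 1.79% of windows and in those of 4 listed genes, Celf3, Chgb, Pcsk1 and Scg2. Only exact matches were counted, and the Chga stretch holds the near match TGACGTAA. The exact element was placed in 2 of the sequences shown. It lies 72 to 65 bases before the RefSeq start of Chgb and 68 to 61 bases before that of Scg2. GENCODE M21 starts both genes farther upstream, Chgb at chr2:132781278 and Scg2 at chr1:79440120. Both elements therefore lie downstream of the GENCODE starts. TATAAA, searched on both strands, was in 13.6% of windows and 3 listed genes (Celf3, Chga and Rab3b), and in Chga it overlaps the end of the alternating run. The E-box CAGCTG was in 16.3% of windows and in 12 of the 26 genes matched. These 26 genes have 36 windows, and a gene was counted if any of its windows held the motif. Shares of windows and counts of genes are thus unlike measures and do not show an excess. The 8-base element TGACGTCA and the E-box read the same on both strands. These are matches of letters, and no binding was measured.

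In WT Aire-GFP+ cells the 36 genes covered a wide range of levels per transcript length. On the deposited TPM scale (counts scaled by transcript length and library total), 4 genes were above 300, 3 between 30 and 300, 23 between 1 and 30, and 6 at or below 1. Calcb, which encodes the neuropeptide CGRP-beta, was the highest at 1824, 1840 and 2007 TPM in the 3 WT libraries. Its range lay above that of every other listed gene. Cadps, a priming factor for dense-core vesicle release, followed at 455 ± 29.0 TPM (SD, n = 3), then Calca at 405 ± 67.2 and Resp18, a granule protein of endocrine cells, at 347 ± 50.4. The ranges of Cadps and Calca overlapped, and so did those of Calca and Resp18.

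Scg5, the 7B2 chaperone of the convertase PC2, was at 51.3 ± 12.1 TPM and Syt1, a calcium sensor of vesicle fusion, at 50.5 ± 3.57, with overlapping ranges. Chga, which encodes the granule matrix protein chromogranin A, stood alone below them at 37.7, 32.9 and 44.4 TPM. Uchl1, a neuronal deubiquitinase, and Isl1, an islet and motor neuron transcription factor, overlapped at 13.6 ± 0.258 and 13.2 ± 0.723. From Rab3b, a vesicle GTPase, at 11.3 ± 0.541 TPM down to Vgf, a neuropeptide precursor, at 0.852 ± 0.209, every gene overlapped its neighbour in the order. The 4 lowest, Fev, Neurod1, Pcsk1n and Nkx2-2, were at 0.141, 0.0797, 0.0619 and 0.0436 TPM. These 4 encode a serotonergic ETS factor, an endocrine and neuronal bHLH factor, the PC1 inhibitor proSAAS and an islet homeobox factor.

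**Figure D1:**
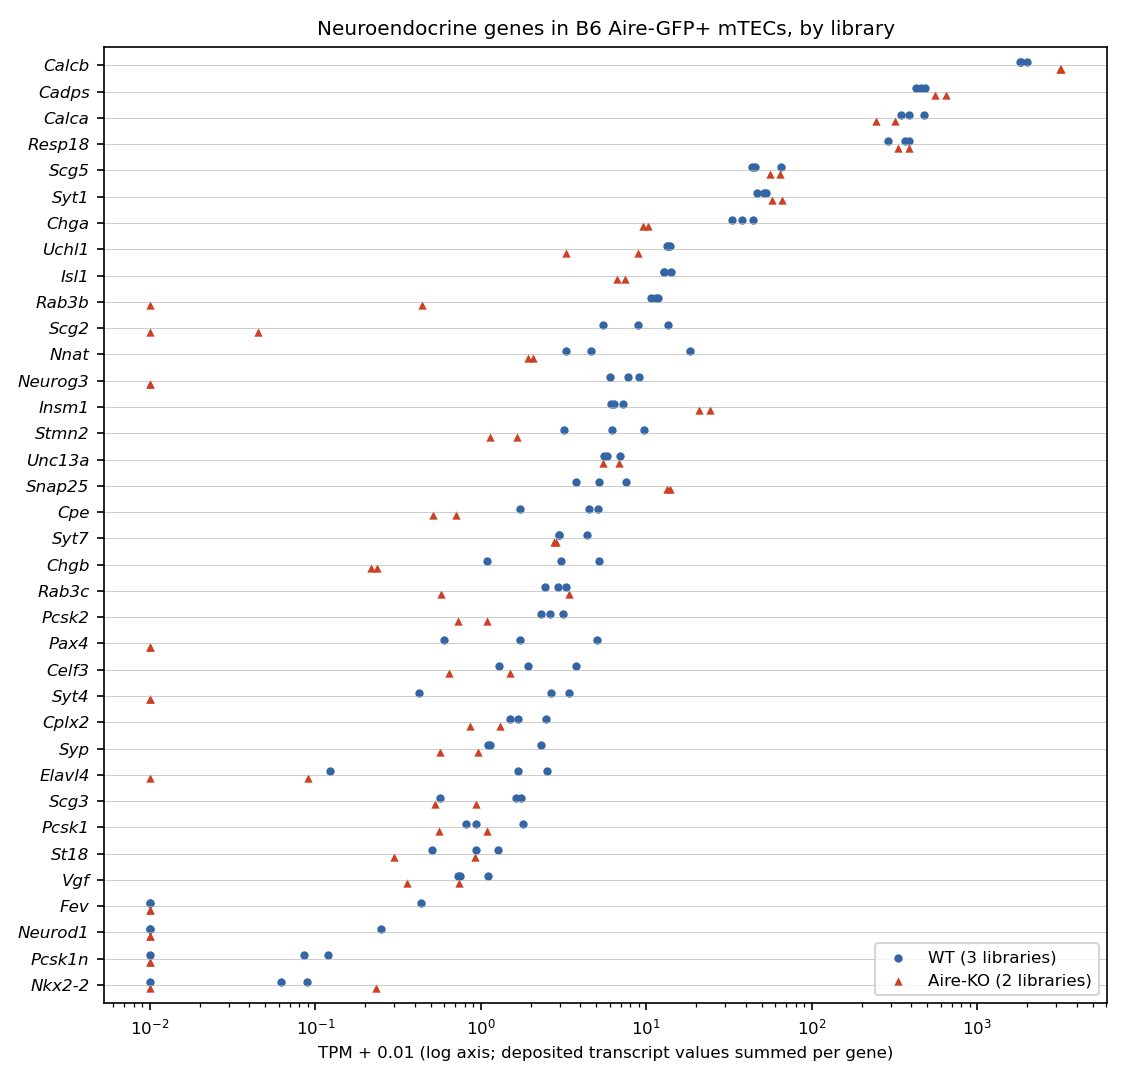
TPM plus 0.01 on a log axis for each of the 36 genes (rows, ordered by the WT mean) in the 3 WT (circles) and 2 Aire-KO (triangles) Aire-GFP+ libraries. Calcb lies alone at the top at 1824 to 2007 TPM in WT, and the KO points of Rab3b, Scg2, Neurog3, Pax4 and Syt4 lie far to the left of their WT points, several at 0 TPM.

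Transcript estimates add detail for 2 of the most abundant genes. Calca makes calcitonin when splicing retains the calcitonin exon and CGRP-alpha when it skips it. The 4-exon transcript Calca-202 ends in the exon that the 5-exon Calca-201 lacks, which makes it the calcitonin form. It took 72.3, 77.5 and 76.8% of the estimated counts of both transcripts in WT and 85.7 and 78.4% in KO. With Calca-203, whose exons overlap the last 2 exons of Calca-201, added to the total, an alternative chosen after seeing the data, its share was 63.4, 64.6 and 64% in WT and 66.8 and 63% in KO. The higher shares in KO therefore held only for the first denominator, and they were not tested. Calcb lies 82285 bases from Calca on chromosome 7 (chr7:114718643-114723365, plus strand, mm10), and 3.43% of the 932 31-base words of its main transcript also occur in Calca, so few reads can be shared between the pair. In Cadps, 43.0 to 48.8% of the estimated counts in the 3 WT libraries were on the 1091-base processed transcript Cadps-212, and its protein-coding transcripts alone summed to 32.4 to 39.3 TPM. Its high place in the order therefore rests on transcripts not annotated as protein-coding.

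In Aire-GFP+ cells the knockout split the list in both directions. The vesicle fusion genes Syt1 and Snap25, the priming factor Cadps, the CGRP-beta gene Calcb and the endocrine zinc finger factor Insm1 rose, along with Scg5 and Resp18. The granins Chga, Chgb and Scg2, the processing enzymes Pcsk2 and Cpe, the vesicle genes Rab3b and Syt4, and the endocrine factors Neurog3 and Pax4 fell. Of the 32 listed genes tested, 7 were called higher and 9 lower, where 19% of all 17923 tested genes were called higher and 22.3% lower (41.3% in either direction). The median log2 change was -0.50 over the listed genes tested and -0.12 over all genes. The list's share called was thus near the background. With library totals in place of TMM, which shifts the median of all genes to -0.51, the split was 5 higher and 12 lower. Shares of all genes called with library totals are not given, so this split and later ones under that setting have no background.

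Among the granule cargo genes, Chga was at 57.5, 48.0 and 63.3 CPM in the WT libraries and 21.7 and 20.4 in KO. The groups did not overlap, and Chga was 2.68-fold lower in KO (log2 change -1.42, SE 0.18, adjusted p = 6.41e-04). Chgb, which encodes chromogranin B, was at 12.03, 6.79 and 2.36 CPM in WT and 0.71 and 0.66 in KO. The WT libraries were uneven but all above both KO libraries, and the fall was 10.03-fold (log2 -3.33, SE 0.79, adjusted p = 0.0112). Scg2, the secretogranin that yields secretoneurin, was at 10.5, 16.8 and 26.1 CPM in WT against 0 and 0.09 in KO, where 1 count in all was read. The ratio of WT to KO was 353, with an exact counting interval of 63.1 to 13980 (95%, counting error only), and edgeR's adjusted p was 2.37e-04.

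Of the remaining cargo genes, Scg5 and Resp18 rose. Scg5 was at 39.3, 40.02 and 56.0 CPM in WT and 81.8 and 71.7 in KO, a rise of 0.76 on the log2 scale (SE 0.19, adjusted p = 0.0124) with no overlap. Resp18 rose from 139.8, 173.9 and 180.6 CPM to 268.6 and 237.1 (log2 0.62, SE 0.14, adjusted p = 0.00826). On the TPM scale the means went only from 51.3 to 60.3 for Scg5 and from 347 to 360 for Resp18. Both calls were lost with library totals (log2 0.37 and 0.22) and without KO replicate 1, while those of Chga and Scg2 held without any 1 library. The call of Chgb was lost without either KO library, at adjusted p up to 0.0685, and its log2 change was -2.71 without WT replicate 1. Scg3, which anchors granins to the granule membrane, was at 1.11 to 2.997 CPM in WT and 2.26 and 1.32 in KO, and Vgf at 1.498 to 2.35 and 1.55 and 1.04. Neither was called, and Pcsk1n had too few counts to be tested.

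The 3 enzymes cut and trim prohormones. Pcsk2, the convertase PC2, was at 10.2, 11.99 and 8.32 CPM in WT and 5.36 and 3.69 in KO, and Cpe, the carboxypeptidase that removes the exposed basic residues, at 2.76, 4.32 and 8.50 against 1.67 and 1.23. Neither pair of groups overlapped. Pcsk2 was lower by 1.17 on the log2 scale (SE 0.35, adjusted p = 0.0293) and Cpe by 1.85 (SE 0.63, adjusted p = 0.0451). Pcsk2 lost its call without WT replicate 1, WT replicate 2 or KO replicate 2, and Cpe without any 1 library but WT replicate 1, at adjusted p up to 0.146 and 0.176. Pcsk2 also lost it with an offset for effective transcript length (adjusted p = 0.0539), and Cpe with the replicate number as a block (adjusted p = 0.186). Pcsk1, the other convertase, was at 2.07 to 3.79 CPM in WT and 3.33 and 6.62 in KO, and was not called.

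Of the calcitonin-family genes, Calcb was at 1255, 1224 and 1310 CPM in WT and 3037 and 3145 in KO. Both KO libraries were far above every WT library, a 2.45-fold rise (log2 1.29, SE 0.08, adjusted p = 3.55e-05). Over 6 other fit settings with all libraries the call held, but the log2 change of Calcb went as low as 0.89. Its neighbour Calca, at 158.5 to 249.8 CPM in WT and 167.4 and 220.4 in KO, was not called.

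Of the 10 vesicle and exocytosis genes, 3 rose and 2 fell, where 19% of all genes were called higher and 22.3% lower. Syt1 was at 185.2, 203.6 and 191.3 CPM in WT and 321.5 and 372.3 in KO (log2 0.84, SE 0.11, adjusted p = 7.34e-04). Snap25, a SNARE protein of the fusion machinery, went from 9.95, 5.91 and 11.1 to 28.9 and 30 CPM (log2 1.72, SE 0.28, adjusted p = 0.00217). Cadps went from 430.9, 414.1 and 400.0 to 759.1 and 889.6 CPM (log2 0.99, SE 0.10, adjusted p = 2.72e-04). In each of these the KO libraries were above all WT libraries, and each call held without any 1 library. Over 6 other fit settings with all libraries the calls held, but the log2 changes went as low as 0.44, 1.32 and 0.59. On the TPM scale the means went from 50.5 to 61.8 for Syt1, 5.48 to 13.6 for Snap25 and 455 to 599 for Cadps. Rab3b was at 11.2, 10.6 and 10.1 CPM in WT and 0 and 0.47 in KO, lower by 5.30 on the log2 scale (SE 0.73, adjusted p = 0.00102). The size rests on 5 counts in KO replicate 2: it was -4.44 without KO replicate 1, and without KO replicate 2 no KO counts remain. Syt4, a vesicle synaptotagmin, was at 8.98, 11.1 and 1.32 CPM in WT with no counts in KO, lower by a bound of 53.4-fold (adjusted p = 0.00607). Here and below such bounds set 3 counts over the group's libraries in place of 0. The 3 counts were scaled by library totals without TMM factors, while the mean of the other group has them. For Aire-KO libraries the bounds are therefore approximate and somewhat too large on the CPM scale. Leaving out 1 of 2 libraries without counts lowers them, for Syt4 to 30.01-fold without KO replicate 1 and 23.4-fold without KO replicate 2. Syp, Syt7, Rab3c, Cplx2 and Unc13a, which encode synaptophysin, another synaptotagmin, a Rab3 GTPase, a complexin and a priming factor, were not called.

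The regulators also split. Insm1 (chr2:146221921-146225020, plus strand, mm10) was at 19.1, 16.5 and 15.3 CPM in WT and 75.0 and 88.2 in KO. This 4.83-fold rise (log2 2.27, SE 0.16, adjusted p = 6.76e-05) had no overlap between groups and held without any 1 library. Over 6 other fit settings with all libraries the call held, with a log2 change as low as 1.87. Neurog3, the bHLH factor of endocrine progenitors, was at 7.33, 10.6 and 8.98 CPM in WT and had no counts in KO. It was lower by a bound of 67.0-fold (adjusted p = 3.29e-04), or 37.7-fold and 29.4-fold without KO replicate 1 or 2. Pax4, an islet paired-box factor, was at 0.41, 3.88 and 1.61 CPM in WT and had no counts in KO, lower by a bound of 14.7-fold (adjusted p = 0.0190). This bound was 7.56-fold without WT replicate 2, 8.27-fold without KO replicate 1 and 6.44-fold without KO replicate 2, and the call was lost without either KO library. Neurog3 overlaps the protein-coding gene Fam241b on the other strand, and the library protocol does not mark strand. Isl1, Celf3, St18 and Elavl4 were tested and not called, and Neurod1, Nkx2-2 and Fev had too few counts to be tested. None of Stmn2, a microtubule regulator of growing axons, Uchl1 and Nnat, the imprinted membrane protein neuronatin, was called. The 16 tested genes with no call ran from -2.98 (Elavl4) to 0.85 (Pcsk1) in log2 change, the lowest adjusted p being 0.0677.

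**Figure D2:**
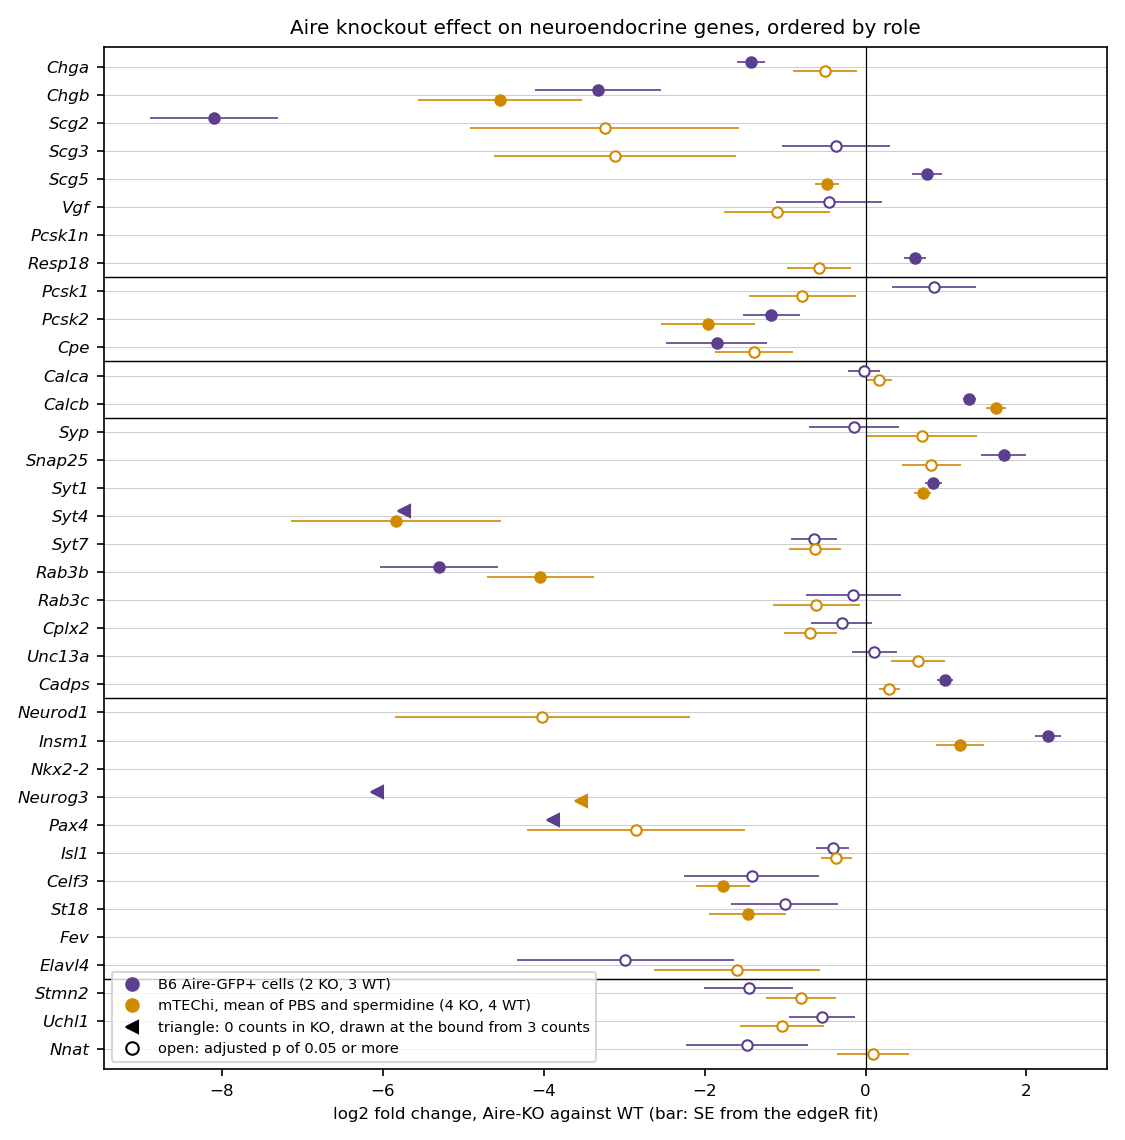
Log2 fold change of Aire-KO against WT (x axis, bars are SE from the edgeR fit) for the listed genes by role, in Aire-GFP+ cells (purple) and mTEChi (orange, mean of PBS and spermidine). Filled symbols passed adjusted p 0.05, triangles are bounds for genes with 0 counts in KO, and genes with no symbol were not tested. Calcb, Syt1 and Insm1 lie to the right in both, Chgb, Rab3b, Syt4, Pcsk2 and Neurog3 to the left in both, and Scg5 on opposite sides.

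In mTEChi, libraries that share no sample with the Aire-GFP+ ones, Calcb, Syt1 and Insm1 were again higher in Aire-KO, and Chgb, Rab3b, Syt4, Pcsk2 and Neurog3 again lower. Celf3, an RNA-binding splicing factor of neurons, the zinc finger factor St18 and Scg5 also fell. Averaged over the PBS and spermidine groups (4 KO against 4 WT libraries), 3 of 33 tested genes were called higher and 8 lower, against 10.3% and 12.5% of all 18418 genes (22.8% in either direction). The median log2 change was -0.78 over the listed genes tested and -0.05 over all genes. With library totals the median of all genes moved to -0.23, and 3 were higher and 9 lower.

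Calcb was at 612.8 and 684.6 (PBS) and 617.8 and 638.0 (spermidine) CPM in WT and at 2299, 1942, 1860 and 1788 in the same order in KO. No KO library came near a WT library, and the rise was 3.08-fold (log2 1.62, SE 0.13, adjusted p = 1.64e-06). Syt1 rose from 386.7, 377.5, 412.1 and 381.6 to 692.6, 658.9, 636.7 and 565.4 CPM (log2 0.71, SE 0.11, adjusted p = 2.75e-04), also without overlap. Insm1 rose from 8.38, 10.7, 8.50 and 5.70 to 13.9, 19.4, 23.8 and 17.6 CPM (log2 1.17, SE 0.30, adjusted p = 0.0119). Its groups did not overlap, but its call was lost without WT PBS replicate 1, WT spermidine replicate 2, KO PBS replicate 2 or KO spermidine replicate 1, at adjusted p up to 0.0560.

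Among the genes that fell, Rab3b was at 13.8, 16.98, 33.3 and 16.2 CPM in WT and 0, 2.42, 0.97 and 1.03 in KO, lower by 4.04 on the log2 scale (SE 0.66, adjusted p = 5.88e-04). Without KO PBS replicate 2 the change was -6.61. Chgb was at 13.8, 22.3, 6.02 and 11.4 CPM in WT and 0.87, 1.04, 0.49 and 0 in KO, lower by 4.54 on the log2 scale (SE 1.02, adjusted p = 0.00638). Without KO spermidine replicate 1 the change was -6.00. For both genes all WT libraries were above all KO libraries. Syt4 was at 1.46, 5.34, 13.8 and 7.89 CPM in WT and had 1 count over the 4 KO libraries, a ratio of 66.7 with a counting interval of 11.6 to 2672 (adjusted p = 0.00603), the count lying in spermidine replicate 1. Celf3, which overlaps Riiad1 on the other strand, went from 15.3, 8.73, 24.4 and 19.7 to 5.21, 3.11, 3.88 and 7.25 CPM (log2 -1.77, SE 0.34, adjusted p = 0.00189), with no overlap. The calls of Calcb, Syt1, Rab3b, Chgb, Syt4 and Celf3 held without any 1 library.

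Calls of the other members that fell were less firm. Neurog3 was at 0.73, 2.91, 3.54 and 6.57 CPM in WT with no counts in KO, lower by a bound of 11.6-fold (adjusted p = 0.0308). Pcsk2 went from 10.9, 6.31, 6.02 and 2.19 to 2.17, 2.42, 0.49 and 1.55 CPM (log2 -1.95, SE 0.58, adjusted p = 0.0263), and St18 from 20.03, 5.82, 18.4 and 23.2 to 7.38, 4.49, 4.37 and 7.77 (log2 -1.47, SE 0.48, adjusted p = 0.0406). The groups overlapped for Pcsk2 and St18. Scg5 went from 51.0, 46.6, 45.7 and 41.6 to 35.6, 40.4, 27.2 and 30.6 CPM (log2 -0.48, SE 0.15, adjusted p = 0.0320) with no overlap. Scg5 lost its call without any 1 library but WT PBS replicate 2, and with no low-count filter (adjusted p = 0.0676). St18 lost its call without the same libraries, and its log2 change was -0.88 without WT PBS replicate 1. Neurog3 kept its call only without WT PBS replicate 1 or WT spermidine replicate 1, and Pcsk2 only without WT PBS replicate 2, WT spermidine replicate 2 or KO spermidine replicate 2. The highest adjusted p over these was 0.118 for Scg5, 0.282 for St18, 0.105 for Neurog3 and 0.159 for Pcsk2.

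Chga did not pass in mTEChi. It was at 80.8 and 79.1 CPM in WT PBS, 121.8 and 53.9 in WT spermidine, 63.4 and 72.6 in KO PBS and 51.0 and 52.3 in KO spermidine. The spread between the 2 WT spermidine libraries was wider than the gap between genotypes (log2 -0.50, SE 0.40, adjusted p = 0.403). With no low-count filter it was called, at an adjusted p of 0.00821 and nearly the same log2 change (-0.51). The libraries and their spread are the same in that fit, so its lower p is not added evidence of a change. Scg2 was likewise not called: 1 KO PBS library held 30.1 CPM and the other 3 KO libraries 0 to 0.49, against 5.26 to 29.7 in WT. Resp18, which rose in Aire-GFP+ KO cells, was also not called in mTEChi. It was at 130.0, 178.1, 160.4 and 147.7 CPM in WT and 129.3, 76.4, 101.0 and 107.7 in KO. Every KO library was below every WT library, the closest being 129.3 and 130.0 CPM. Whether the knockout effect on Chga, Scg2 or Resp18 differs between the 2 experiments was not tested. The 22 tested genes with no call ran from -4.02 (Neurod1) to 0.82 (Snap25), the lowest adjusted p being 0.0538.

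**Figure D3:**
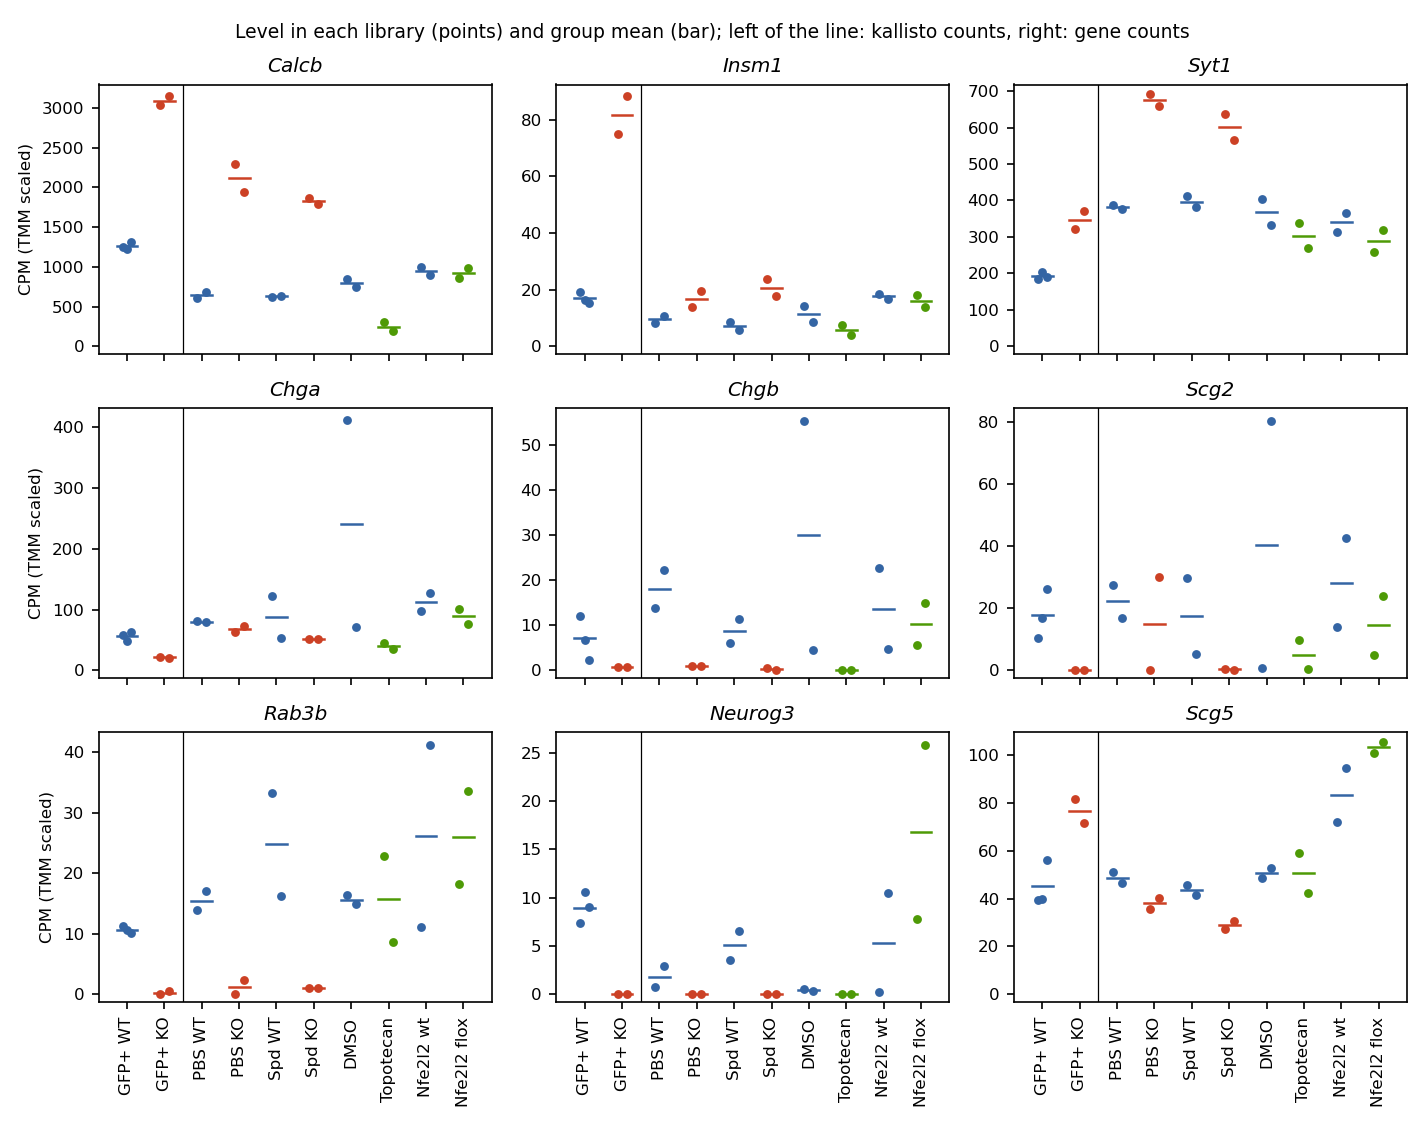
TMM-scaled CPM of 9 of the genes in each of the 21 libraries (points) with group means (bars), Aire-KO in red, topotecan and Nfe2l2 fl/fl in green, other groups in blue. Values left and right of the vertical line were quantified differently and are not compared. Calcb and Syt1 are higher in every KO group than in its WT group, Calcb is lowest in topotecan, and Chga, Chgb and Scg2 each have 1 DMSO library far above the other.

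Each treatment also gives its own knockout comparison, and these share no libraries. Under PBS, Calcb (log2 1.71, SE 0.18, adjusted p = 7.13e-05) and Syt1 (0.82, SE 0.15, adjusted p = 0.00304) were higher, and Rab3b (-3.51, adjusted p = 0.0238) and Chgb (-4.17, adjusted p = 0.0479) lower. That is 2 of 33 in each direction, against 5.21% of all genes called higher and 5.08% lower (10.3% in either direction). Under spermidine, Calcb (1.54, SE 0.18, adjusted p = 1.71e-04), Syt1 (0.60, SE 0.15, adjusted p = 0.0220) and Insm1 (1.53, SE 0.43, adjusted p = 0.0388) were higher, and Rab3b (-4.58, adjusted p = 0.00924) and Celf3 (-1.99, adjusted p = 0.0175) lower. That is 3 higher and 2 lower of 33, against 4.77% of all genes called higher and 4.34% lower (9.11% in either direction). With library totals the spermidine split was 1 higher and 4 lower, Syt1 and Insm1 losing their calls. Calcb, Syt1 and Rab3b were called under both treatments, and 31 of the 33 genes had the same sign, against 74.3% of all genes. Only Calcb under both treatments and Syt1 under PBS kept their calls whichever 1 library was left out. Chgb under PBS and Syt1 and Insm1 under spermidine lost theirs whichever of the 4 libraries was left out. Rab3b lost its call under PBS without either WT library or KO replicate 1 (log2 -2.64 without the last), while without KO replicate 2 no KO counts of it remain, and Rab3b and Celf3 lost theirs under spermidine without WT replicate 1 (log2 -3.96 for Rab3b) or either KO library. Insm1 under PBS had a log2 change of 0.81 (SE 0.42, adjusted p = 0.247), and Chga had -0.23 under PBS and -0.78 under spermidine (adjusted p = 0.844 and 0.460), the second being called with no low-count filter (adjusted p = 0.00553).

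Set beside each other, the Aire-GFP+ and the averaged mTEChi comparisons had the same sign for 26 of the 32 genes tested in both (81.3%, against 69.4% of 15649 genes). Pearson's r of the log2 changes across these 32 genes was 0.87, and 0.76 across all 15649, where genes are not independent replicates. Genes with no counts in KO entered at their fitted log2 changes and not at bounds, for example Neurog3 at -9.44 and -6.26. Called in both in the same direction were 8, which is 25% of the 32, against 15.0% of all genes: Calcb, Syt1 and Insm1 higher, and Chgb, Pcsk2, Syt4, Rab3b and Neurog3 lower. Scg5 was called in both in opposite directions.

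Spermidine, a polyamine, moved none of the 33 tested genes past the threshold in WT mTEChi, where 0% of all genes were called, or in Aire-KO mTEChi, where 0.00543% were (1 gene). At an unadjusted p under 0.05 there were 1 and 0 listed genes, of 709 and 759 genes in all. Chga changed by 0.14 (SE 0.55) in WT and -0.40 (SE 0.58) in KO on the log2 scale, and Insm1 by -0.41 (SE 0.44) and 0.31 (SE 0.40). The sign for Chga in WT rests on spermidine replicate 1, without which it was -0.57. The difference of the knockout effect between the treatments was called for no listed gene and for 0% of all genes (1 listed gene and 619 in all at an unadjusted p under 0.05). It was -0.54 (SE 0.80) for Chga, turning to 0.17 without the same library, and 0.72 (SE 0.60) for Insm1. These comparisons use the libraries of the knockout comparisons. At the standard errors of Chga, a 2-fold change lies within about 2 SE of no change.

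Topotecan, an inhibitor of topoisomerase I, lowered Calcb. The gene was at 847.5 and 740.8 CPM in the DMSO libraries and 309.1 and 187.6 under topotecan, 3.20-fold lower with no overlap (log2 -1.68, SE 0.18, adjusted p = 0.00235). This call held without any 1 library, but with the 4 libraries of the experiment fitted alone its adjusted p was 0.184. Chgb was at 55.3 and 4.49 CPM under DMSO and had no counts under topotecan, at least 58.3-fold lower (adjusted p = 0.0406). This bound rests on DMSO replicate 1, which held 193 of the 209 counts, and was 8.74-fold without it, 107.8-fold without DMSO replicate 2, and 29.4-fold and 28.8-fold without topotecan replicate 1 or 2. Its call was lost without DMSO replicate 1 or either topotecan library, and in the fit of the experiment alone. These 2 of 33 compare with 0.456% of all genes called lower and 0.195% higher (0.652% in either direction). At an unadjusted p under 0.05 there were 8 listed genes, 7 of them lower, of 2566 genes in all.

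Chga was at 411.7 and 70.7 CPM under DMSO and 44.1 and 35.4 under topotecan. Both topotecan libraries were below both DMSO libraries, but the call was missed (log2 -2.60, SE 0.57, adjusted p = 0.0567) and the size rests on DMSO replicate 1. Without that library the change was -0.84 (adjusted p = 0.395), and without DMSO replicate 2 it was -3.42 with a call (adjusted p = 9.24e-04). DESeq2 also called it (log2 -2.62, adjusted p = 0.00923). The edgeR fit with no low-count filter called it at an adjusted p of 1.9e-32, although the 2 DMSO libraries differed 5.83-fold. That p does not reflect this spread, so calls from the fit with no filter are given as sensitivity only. Insm1 went from 14.3 and 8.69 to 7.62 and 3.82 CPM (log2 -1.01, SE 0.43, adjusted p = 0.314). The 12 thymocyte markers summed to 257.1 to 292.7 CPM under DMSO and 358.4 to 380.6 under topotecan, all 12 with counts, and the 18 neuron and glia markers to 169.1 to 178.0 and 125.8 to 138.8. Aire was at 1500 and 1180 CPM under DMSO and 818.8 and 640.5 under topotecan (log2 -0.88, adjusted p = 0.0125). The part of these in the changes of Calcb and Chgb was not tested.

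Deleting Nfe2l2, the gene of the antioxidant factor NRF2, with Foxn1-cre called none of the 33 tested genes, as with 0% of all genes. At an unadjusted p under 0.05 there were 1 listed gene and 973 genes in all. Chga was at 98.4 and 126.6 CPM in Nfe2l2+/+ and 101.0 and 76.4 in fl/fl (log2 -0.35, SE 0.53), and Insm1 at 18.5 and 16.8 against 18.3 and 13.8 (log2 -0.14, SE 0.39). Both pairs of groups overlapped. Calca, the 1 gene with the unadjusted p, was at 253.5 and 241.5 CPM in Nfe2l2+/+ and 111.4 and 143.7 in fl/fl (log2 -0.95, SE 0.22, edgeR adjusted p = 0.381). It was called by DESeq2 and with no low-count filter.

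The genes differed in how well the 2 libraries of a mTEChi group matched. Calcb, Syt1, Cadps and Scg5, all abundant, had nearly equal replicates in most groups. Scg2 was at 0.57 and 80.5 CPM in the DMSO libraries, 9.61 and 0.32 under topotecan and 0 and 30.1 in KO PBS. Resp18 was at 359.4 and 47.5 CPM under topotecan, against 97.2 and 95.3 under DMSO. The high libraries were not the same for each gene: among the DMSO libraries Chga and Chgb were high in replicate 1 and Scg2 in replicate 2. Neurod1, at 11.5 and 1.68 CPM, was also higher in DMSO replicate 1, while Syt4 had 0.29 and 0 CPM there.

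**Figure D4:**
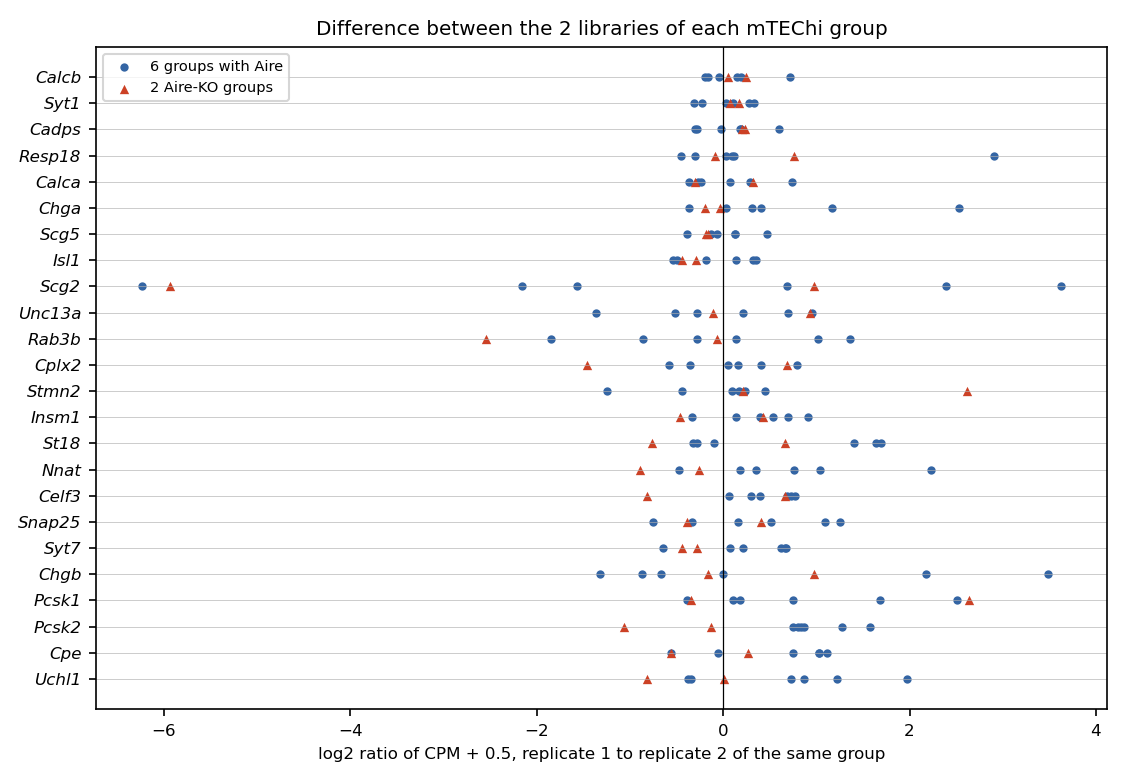
Log2 ratio of CPM plus 0.5 between replicates 1 and 2 of each mTEChi group, for the 24 listed genes with a mean of 5 CPM or more, ordered by mean level. Calcb, Syt1 and Cadps stay near 0 in most groups, with Calcb at 309.1 and 187.6 CPM and Cadps at 215.3 and 141.7 in topotecan, while Scg2 spans from far left to far right, and Chga and Chgb lie farthest to the right in the DMSO group.

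Other genes of the same pathways, from lists that leave out the 36, gave this picture. In Aire-GFP+ cells the 27 peptide hormones and neuropeptides had 22 called lower and 2 higher, with a median log2 change of -4.25. The share called lower of all genes was 22.3%. The gut peptide gene Pyy went from 62.1 ± 11.3 CPM (SD, n = 3) to no counts, lower by a bound of 464-fold. Gal, the galanin gene, went from 102 CPM on average to 0.415 (adjusted p = 2.57e-05), and Penk, the enkephalin precursor, from 32.1 ± 1.2 to 1.67 ± 0.178. In mTEChi 15 of 26 were lower and 1 higher, with a median of -3.99, or -3.71 with the genes that had no counts in KO set at their bounds, against 12.5% of all genes lower. Gip fell there from 23.1 ± 2.57 CPM (SD, n = 4) to no counts, by a bound of 77.8-fold. Pyy fell from 39.5 ± 9.93 to 0.108 ± 0.217 (adjusted p = 2.66e-05), and Pomc from 58.4 ± 16.9 to 3.14 ± 0.791. The list contains the hormones that granules carry, and it was chosen with earlier results of these data known.

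Among 34 other tested vesicle and exocytosis genes, 4 were higher and 9 lower in Aire-GFP+ KO cells, and among 35 in mTEChi 4 and 8. Syn2, a synaptic vesicle phosphoprotein, rose in both, from 23.6 ± 2.95 to 194 ± 7.42 CPM (log2 3.04, adjusted p = 1.71e-05) and from 17.3 ± 3.15 to 98.1 ± 14.4 (log2 2.49, adjusted p = 2.93e-05). Of 15 other processing genes 2 were higher and 6 lower in Aire-GFP+ cells, and 1 and 3 of 13 in mTEChi. Pam, which amidates peptides, went from 89.9 ± 8.24 to 44.9 ± 5.74 CPM in Aire-GFP+ KO cells (adjusted p = 0.00152), and the carboxypeptidase Cpz fell in both (log2 -4.84 and -6.78, adjusted p = 2.96e-04 and 2.18e-06). Of 25 other neuroendocrine regulators 3 were higher and 6 lower in Aire-GFP+ cells, and 2 and 3 of 22 in mTEChi. The homeobox gene Nkx6-2 rose in both (log2 1.94 and 2.43, adjusted p = 4.04e-04 and 4.07e-06). Against the 41.3% and 22.8% of all genes called in either direction, the vesicle and regulator lists were below that share in Aire-GFP+ cells and the processing list above it, while in mTEChi the vesicle and processing lists were above it and the regulators close to it. In topotecan, 1 gene of these 4 lists was called, Rfx6, an endocrine RFX factor, which went from 16.1 ± 2.95 to 1.14 ± 0.261 CPM (SD, n = 2; log2 -3.78, adjusted p = 0.0107).

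Summed neuron and glia markers were lower in KO in both experiments. Summed thymocyte markers were lower in Aire-GFP+ KO cells but did not move in one direction in mTEChi. Of 17 tested neuron and glia markers 10 were lower and none higher in Aire-GFP+ KO cells, and of 16 in mTEChi 8 were lower and none higher. Of all genes 22.3% and 12.5% were called lower in these comparisons. The median log2 changes of the neuron and glia markers were -2.82 and -1.99. The 18 listed summed to 166.1 to 216.6 CPM in Aire-GFP+ WT and 49.3 to 66.0 in KO, and to 203.2 to 246.0 in WT PBS mTEChi and 70.7 to 82.9 in KO PBS, with 0 to 2 of the 18 without counts in a group. Of 11 tested thymocyte markers 3 were lower and none higher in Aire-GFP+ KO cells, and 1 and none in the averaged mTEChi comparison. The share lower in Aire-GFP+ cells was near the 22.3% of all genes. The median log2 change of the thymocyte markers was -0.11 there, against -0.12 over all genes, and -0.43 in mTEChi, against -0.05. All 12 listed had counts in Aire-GFP+ cells and summed to 67.5 to 91.8 CPM in WT and 33.5 to 52.8 in KO. In mTEChi they summed to 107.7 to 156.6 CPM in WT PBS, 96.3 to 96.7 in KO PBS, 160.4 to 184.5 in WT spermidine and 195.7 to 206.1 in KO spermidine, so KO was below WT under PBS and above it under spermidine. The part of these markers in the changes of the neuroendocrine genes was not tested.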

How the data were processed

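For Aire-GFP+ cells the authors deposited estimated counts, TPM and effective lengths per transcript from kallisto, and for mTEChi raw counts per gene. The submitters' processing notes also name STAR, featureCounts, TopHat2 2.1.1 and SAMtools 1.3.1 and the build mm10, with no versions for kallisto, STAR or featureCounts. No source used here names the kallisto index. Of 118489 transcripts, 116816 matched GENCODE M21. Their counts were added up per gene symbol (35999 symbols), then rounded. The remaining 1673 held 0.541 to 0.578% of counts. All 55011 mTEChi rows name a gene.

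Counts were tested with edgeR 4.0.16 (TMM, filterByExpr, quasi-likelihood) in R 4.3.3, with Benjamini-Hochberg adjustment over all genes passing the filter. The 5 Aire-GFP+ libraries made one fit and the 16 mTEChi libraries another with 8 group means. SE was derived from the log2 change and the F statistic. The filter kept 32 and 33 of the 36 genes. The biological coefficient of variation was 0.272 and 0.269. Replicates differed by more than counting error (chi-square per degree of freedom 3.05 to 19.7), and nothing in the labels says they come from separate animals, so p-values measure the spread between libraries, which may be technical. Alternatives were library totals, RLE size factors, no filter, an effective-length offset, the replicate number as a block, each experiment alone, DESeq2 1.42.0 and leaving out each library. The fits were tested on simulated data. The members and lists were chosen with earlier results of these data known. Named are all 36 genes with full values for those called, Chga and Insm1 in each comparison, and up to 4 called genes per other list by adjusted p. The 6 NOD and 3 F1 libraries were not analysed here.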

Additional observations from a re-analysis of the deposited data

Results flagged for a closer look

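Scg5, the chaperone of the convertase PC2, moved in opposite directions in the 2 Aire knockout comparisons. Its log2 change was 0.76 in Aire-GFP+ cells, where both KO libraries were above all 3 WT libraries, and -0.48 in mTEChi, where all 4 KO libraries were below all 4 WT libraries. The difference between the 2 effects was not tested, because the 2 experiments were quantified in different ways and fitted apart. With library totals in place of TMM the log2 change in Aire-GFP+ cells was 0.37 and was no longer called, and with no low-count filter the mTEChi call was lost (adjusted p = 0.0676).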

How the results depend on the processing

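Leaving out each library gave 11 to 16 called neuroendocrine genes in Aire-GFP+ cells (16 with all), 6 to 11 in the averaged mTEChi comparison (11), 2 to 3 under PBS (4), 1 to 3 under spermidine (5) and 1 to 3 for topotecan (2), the arm left with 1 library being assumed to vary like the other groups. Fewer libraries were tested in each; other causes were not tested. With no low-count filter the counts were 8 under PBS, 13 under spermidine, 8 for topotecan and 1 each for spermidine in KO cells, the difference of knockout effects and Nfe2l2. Calls over all genes rose too. Over the other fit settings they reached 2714 under PBS (1896 in the main fit) and 2517 under spermidine (1678). The rise in listed genes is therefore not read as a result about them. DESeq2 called 8 under spermidine and 1 for Nfe2l2, and the topotecan experiment fitted alone called 0. Sign turned for 3 changes that were not called. Chga ran from -0.57 without WT spermidine replicate 1 to 0.61 without replicate 2 for spermidine in WT, and from 0.17 to -1.01 for the difference of knockout effects, in the same order. Insm1 for Nfe2l2 ran from -0.35 without fl/fl replicate 1 to 0.047 without replicate 2. The cause was not tested.

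Over all genes, calls fell to 4785 in Aire-GFP+ cells without KO replicate 2 (7410 with all), to 636 to 1185 under PBS (1896) and to 553 to 793 under spermidine (1678) on leaving out a library. For topotecan (120) they were 1006 with no filter, 429 with DESeq2, 1 in the experiment alone and 45 without DMSO replicate 1. With no filter 111, 76, 78 and 134 genes were called for spermidine in WT, spermidine in KO, the difference and Nfe2l2, and with DESeq2 6, 3 and 28 in the last 3.

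Replicate numbers did not pair the samples (correlations of deviations -0.01 to 0.057). With the replicate number as a block, 16, 11, 4 and 6 neuroendocrine genes were called in the Aire-GFP+, averaged, PBS and spermidine knockout comparisons and 2 for topotecan, where 196 genes in all were called. Under the block Cpe lost its call in Aire-GFP+ cells and Stmn2 gained one, and Chgb gained one under spermidine. At these depths, genes under about 1 CPM rest on a few counts per library.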

Other observations

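Thyroid, parathyroid and C cell markers, which include genes of the calcitonin-producing C cell, moved in both directions. In Aire-GFP+ KO cells 4 of 11 tested were lower and 2 higher, where 22.3% of all genes were lower and 19% higher. Pth, the parathyroid hormone gene, went from 12.5 ± 6.42 CPM (SD, n = 3) to 0.178 ± 0.252 (n = 2; adjusted p = 0.00147), and Pax8, a thyroid factor, from 8.02 ± 3.42 to 0.178 ± 0.252 (adjusted p = 0.00247). Ret, the receptor of GDNF-family ligands, rose from 13.6 ± 0.543 to 30.3 ± 0.863 CPM (log2 1.15, adjusted p = 0.00192), and Gfra4, a co-receptor of Ret, from 3.02 ± 0.526 to 11.6 ± 1.19 (log2 1.93, adjusted p = 0.00338). In mTEChi 3 of 10 were lower and none higher, against 12.5% and 10.3% of all genes.

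The 16 mTEC identity genes had 6 called higher and 3 lower in Aire-GFP+ KO cells, and 9 and 1 of 15 tested in mTEChi. Of all genes 19% were called higher and 22.3% lower in Aire-GFP+ cells, and 10.3% and 12.5% in mTEChi. The class II gene H2-Aa rose in both (log2 1.15 and 0.88, adjusted p = 5.12e-05 and 4.07e-08). Krt8 rose in Aire-GFP+ cells from 1406 ± 40.1 to 3072 ± 163 CPM, Fezf2 from 177 ± 5.21 to 385 ± 4.13, and Foxn1 fell from 175 ± 22.4 to 63.0 ± 3.36. In mTEChi Foxn1 rose, from 214 ± 21.2 CPM (SD, n = 4) to 321 ± 18.1, a value singled out after it was seen, and whether its 2 effects differ was not tested. Krt5 went from 739 ± 46.2 CPM to 355 ± 48.2 and Cd40 from 266 ± 22.1 to 466 ± 56.6.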
